A study of Mus musculus with 12 samples.

Results

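The genes described here encode the subunits and assembly factors of oxidative phosphorylation, measured in mouse blastocysts. Members were all probe sets paired with exactly 1 gene whose symbol starts with Nduf, Uqcr, Atp5 or Cox4 to Cox8, or is Sdha, Sdhb, Sdhc, Sdhd or one of Coa1 to Coa7. The choice used gene names and no signal. It gave 187 probe sets of 95 genes, out of 45037 probe sets and 18193 genes on the array. Complex I had 42 genes, complex II 4, complex III 8, complex IV 24 and complex V 17. A further 11 probe sets named a member together with another gene and were left out. Of the members, 169 probe sets of 92 genes reached a mean signal of 100 over the 12 arrays and were tested; 18 probe sets did not, and Cox6b2, Cox8b and Ndufa4l2 had no tested probe set. Of the tested probe sets 2 reached a mean of 100 in 1 group only, a second probe set of Coa3 in Ca-free medium and one of Ndufb2 after 20 pulses.

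The study compared 3 groups of 4 arrays each. The labels name control blastocysts, blastocysts treated by 20 pulses (20 pulses), and blastocysts cultured in medium free of Ca (Ca-free medium). The title of the study names the pattern of Ca2+ oscillations in fertilized eggs as the question, with expression and development to term as the outcomes. The labels do not say what the pulses were or at which stage the treatments were given. Strain, age of the embryos, number of embryos per array and timing of the treatments were not given in the sources used here. Nothing in the labels makes the replicates separate embryo collections, so p-values measure the spread between these samples only, which may be technical.

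Oxidative phosphorylation makes most of the ATP of many cells. Complexes I and II pass electrons from NADH and succinate to ubiquinone, complex III passes them to cytochrome c, and complex IV passes them to oxygen, while complexes I, III and IV pump protons across the inner mitochondrial membrane. Complex V, the ATP synthase, uses the returning protons to make ATP. Preimplantation embryos depend on mitochondria inherited from the egg, and oxygen consumption is known to rise as the blastocyst forms. Most subunits are encoded in the nucleus, and assembly factors help to put the complexes together without being part of the finished enzyme.

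The arrays were scaled to a common trimmed mean, and signals are in these scaled intensity units. All 9 blastocyst markers were measured, and the mean control signal was 13470 for the trophectoderm keratin Krt8 and 5173 for the pluripotency factor Pou5f1. In Ca-free medium 2 of the 9 rose, Cdx2 of the trophectoderm (0.28 on the scale log2(signal + 32)) and Pou5f1 (0.20), and 2 fell, the trophectoderm factor Eomes (-0.70) and the primitive endoderm factor Gata4 (-0.69). After 20 pulses Sox17, also of the primitive endoderm, rose by 1.00 (limma, adjusted p = 0.027). The summed signal of the 9 was 46930 to 49060 on controls, 46850 to 48420 after 20 pulses and 45650 to 49390 in Ca-free medium. The part of these lineage shifts in the results below was not tested. The median signal of all probe sets was 164.6 to 176.8 on control arrays, 157.8 to 178.8 on 20 pulses arrays and 127.6 to 130.6 on Ca-free arrays. The controls fell into pairs by Actb signal at the 3′ end over that at the 5′ end. This ratio was 1.59 and 1.67 on controls 1 and 2, and 2.69 and 2.64 on controls 3 and 4. It was 1.49 to 1.69 on the 20 pulses arrays and 1.69 to 1.88 on the Ca-free arrays. The Gapdh ratio was 5.76 to 8.90 on control arrays and 2.89 to 5.05 on Ca-free arrays, and 18S rRNA, at its 5′ end, read 878.4 to 2559 on controls and 4003 to 5780 on Ca-free arrays. The part of these differences in the results below was not tested.

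The promoters of the members are shown first by the letters that known regulators of respiratory genes read. Nuclear respiratory factor 1 (NRF1) and GABP are transcription factors known for binding many respiratory gene promoters, and YY1 binds near the start site of some of them. RefSeq promoter windows on GRCm38.p6, 300 bases long with 250 before and 50 after the start, were matched by symbol for 78 of the 95 genes, giving 83 windows. The NRF1 letters GCGCANGCG, on either strand, were in 26.5% of member windows, in 11.5% of the 13926 windows of all tested genes and in 6.25% of all 32851 windows. The GABP letters CCGGAAG were in 24.1%, 15.5% and 8.86% of these windows, and the YY1 letters AAGATGGCG in 8.43%, 2.54% and 1.4%. The GABP letters end as the YY1 letters begin, so matches of both can overlap. The part of base composition in these shares was not tested. The windows of 4 genes whose results differ in direction below are printed on their own strand with matches in capitals: Ndufaf4 was called higher in Ca-free medium, Atp5l was called higher, Sdhd was called lower and Sdha was not called.
Ndufaf4, NRF1, chr4:24897945-24898003, plus strand: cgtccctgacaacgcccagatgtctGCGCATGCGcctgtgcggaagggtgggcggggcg
Atp5l, NRF1, chr9:44920950-44920992, minus strand: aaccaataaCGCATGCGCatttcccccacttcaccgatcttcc
Atp5l, GABP, chr9:44920923-44920979, minus strand: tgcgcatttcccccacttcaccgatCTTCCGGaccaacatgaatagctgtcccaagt
Sdhd, NRF1, chr9:50603895-50603953, minus strand: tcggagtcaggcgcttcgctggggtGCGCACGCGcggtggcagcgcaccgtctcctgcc
Sdhd, GABP, chr9:50603864-50603920, minus strand: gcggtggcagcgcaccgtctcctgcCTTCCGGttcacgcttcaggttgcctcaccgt
Sdha, NRF1, chr13:74350305-74350363, minus strand: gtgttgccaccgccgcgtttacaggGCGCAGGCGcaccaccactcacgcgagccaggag
Sdha, NRF1, chr13:74350262-74350320, minus strand: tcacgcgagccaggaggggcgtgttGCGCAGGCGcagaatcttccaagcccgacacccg
All printed bases lie before the annotated start. The match began 113 bases before the start in Ndufaf4, 79 bases before it in Sdhd for NRF1, and 98 and 55 bases before it in the 2 windows of Sdha, which held a further match 10 bases before its start. Among members called higher in Ca-free medium, 24.1% of 29 windows held the NRF1 letters and 27.6% the GABP letters, against 28.8% and 23.1% of the 52 windows of tested members not called higher. A match is a description of letters and not a bound site.

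In Ca-free medium most members that passed the test were higher than in control. Of the 169 probe sets, 54 were called higher and 9 lower by limma at an adjusted p under 0.05, against 10.6% higher and 29.7% lower among all 27808 tested probe sets (40.3% called in either direction). These counts are 32% and 5.33% of the members, and the higher count was 53 without the second probe set of Coa3. Counted by gene, with the brightest tested probe set standing for its gene, 32 of 92 genes rose and 4 fell, beside 12.3% higher and 28.8% lower among all 13599 tested genes. The median change, on the scale log2(signal + 32), was 0.14 for member genes and -0.13 for all genes. Every Ca-free array exceeded every control array in 41 member probe sets and lay below every control in 8, beside 9.23% and 27% of all probe sets.

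**Figure D1:**
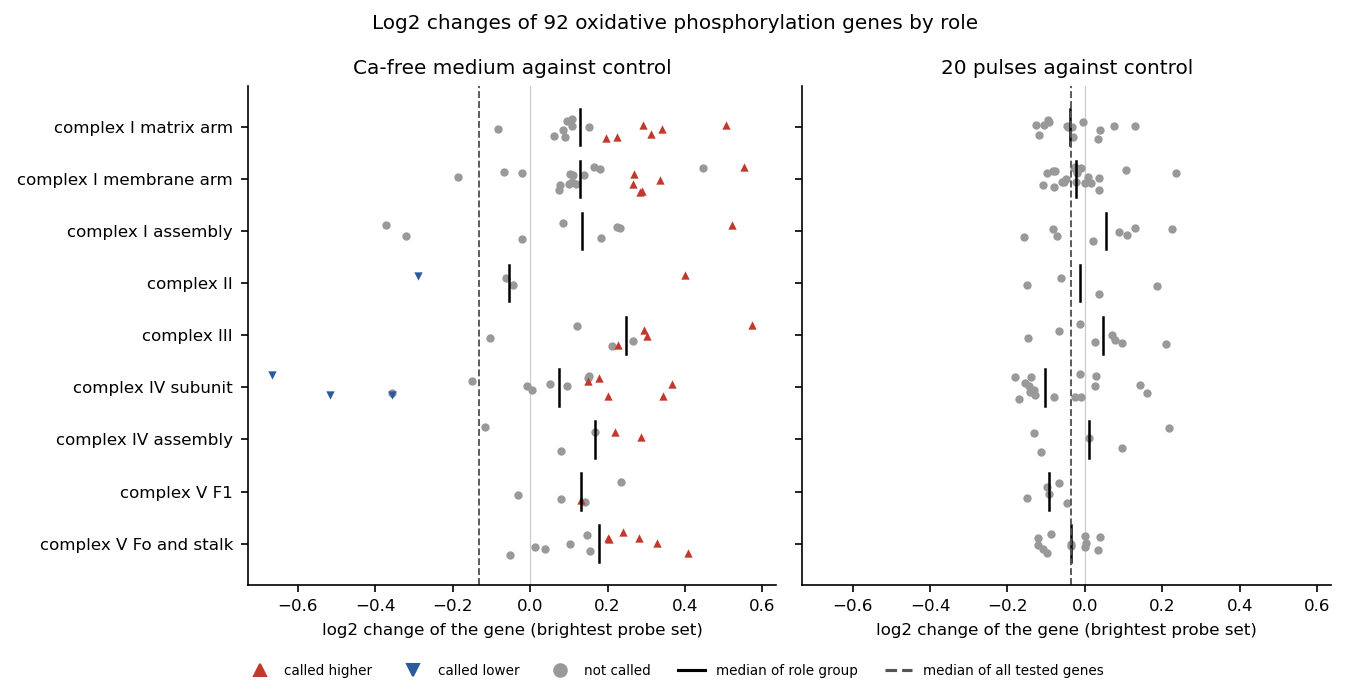
Log2 change of each of the 92 tested genes (x axis, log2 of signal + 32; brightest probe set of the gene) by role group (y axis), Ca-free medium against control on the left and 20 pulses against control on the right. Triangles are genes called by limma, grey points are not called, black bars are group medians and the dashed line is the median of all tested genes; in Ca-free medium 32 genes are called higher and 4 lower at this scaling, and after 20 pulses none is called.

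How many members passed depended on how the arrays were put on a common scale. Quantile normalization gave 25 higher and 10 lower, and scaling to a common median gave 146 higher and 2 lower. Scaling to the hybridization controls gave 10 higher and 35 lower. Among all tested probe sets, 2738 of 27795 were higher and 2760 lower with quantile normalization. With median scaling 10266 of 27692 were higher and 1513 lower, and with hybridization control scaling 768 of 27999 were higher and 13773 lower. The median change of member genes was 0.05, 0.55 and -0.06 in turn, and the median of all tested probe sets was -0.02, 0.20 and -0.36, against -0.18 at the scaling used here. The member median lay above that of all probe sets under each of these 4 scalings. Apart from quantile normalization, each multiplies a whole array by its own factor, so both medians move almost together. They are therefore not separate results. The member median is over the brightest probe set of each gene, and the other is over all tested probe sets. Leaving out the second probe set of Coa3, 9 probe sets of 8 genes were called higher under all 4 scalings, and both probe sets of Cox8c were called lower. With that Coa3 probe set the higher calls are the 10 made by scaling to the hybridization controls. The 2 lower calls are those of median scaling. The 4 scalings thus give no separate support, and the share of all probe sets called under all 4 was not counted. For 4 of the 8 genes, Ndufa6, Ndufaf4, Ndufb10 and Uqcr10, the probe set called higher was the brightest. For Atp5j2, Ndufa5, Ndufs8 and Ndufv2 it was a dimmer one.

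The genes described below on their brightest probe set differed in this respect. Scaling to the hybridization controls ended the calls of Atp5g1 (0.20), Ndufa4 (0.16), Ndufv2 (0.14), Sdhb (0.20) and Uqcrc2 (0.10). Both quantile normalization and scaling to the hybridization controls ended those of Atp5c1, Atp5l, Coa3, Coa6, Cox8a and Ndufb5, with changes of -0.08 to 0.22. Sdha was called lower (-0.27) with scaling to the hybridization controls.

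The members are bright, and bright probe sets as a whole read higher in Ca-free medium at the scaling used here. In the brightest decile of all probe sets (mean signal of 2742 or more) lay 102 of the 169 members. There the median log2 change was 0.15 for members and 0.12 for all probe sets, and 35.9% of all probe sets were called higher and 4.28% lower, beside 42 members higher and 0 lower. The next decile held 22 members, with a median change of 0.22 against 0.10 for all probe sets in it. In the dimmest decile the median of all probe sets was -0.36.

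**Figure D2:**
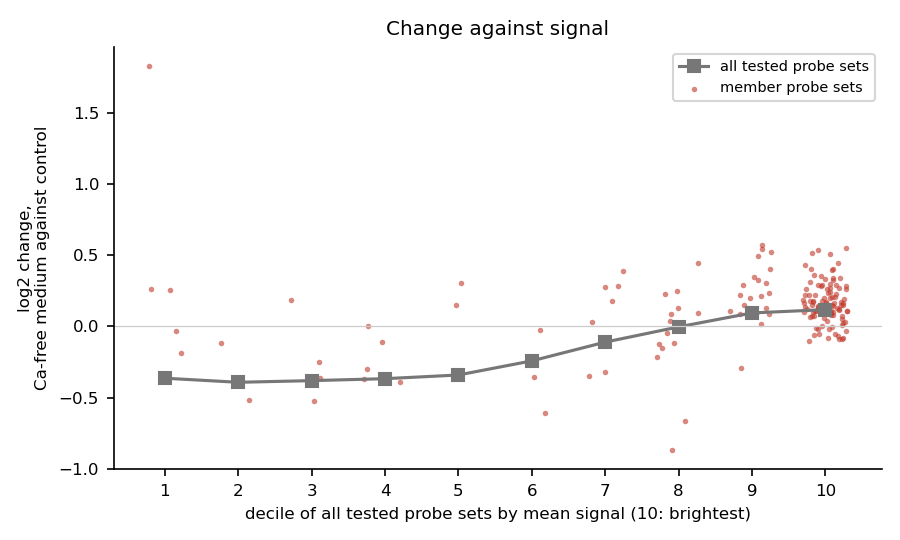
Log2 change in Ca-free medium against control (y axis, log2 of signal + 32) by decile of all 27808 tested probe sets ranked on mean signal (x axis, 10 is the brightest). Grey squares are medians of all probe sets, which run from -0.36 in the dimmest to 0.12 in the brightest decile, and red points are the 169 member probe sets, 102 of them in the brightest. The highest point is the second probe set of Coa3, which reached a mean of 100 in Ca-free medium only.

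By array, the median of the members relative to the control mean was -0.08 and -0.04 on controls 1 and 2 and 0.08 and 0.05 on controls 3 and 4. On the Ca-free arrays it was 0.15, 0.14, 0.06 and 0.21, so that Ca-free array 3 lay below control 3. With only controls 1 and 2 in the fit 69 member probe sets were called higher, and with only controls 3 and 4, 25. Leaving out control 1 alone gave 35. Among all 27808 tested probe sets these fits called 2485, 2046 and 2441 higher in turn. Leaving out control 3, or Ca-free array 2, lowered the count of lower calls from 9 to 5.

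**Figure D3:**
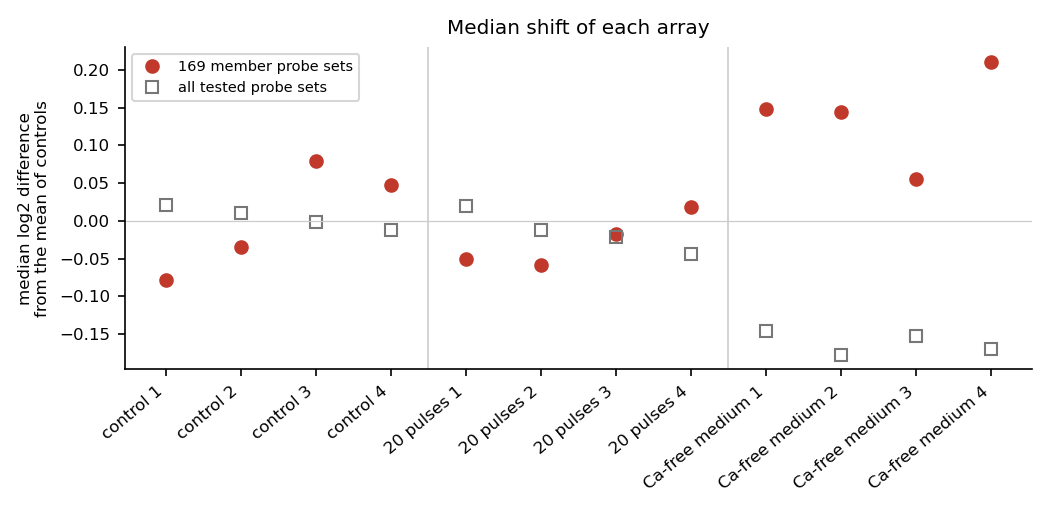
Median log2 difference of each array (x axis) from the mean of the controls (y axis), for the 169 member probe sets in red and for all 27808 tested probe sets as open squares. The members lie at 0.06 to 0.21 on the Ca-free arrays, while all probe sets lie at -0.15 to -0.18 there.

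Complex I takes electrons from NADH in its matrix arm and pumps protons through its membrane arm. Of its 42 genes, 13 (31%) rose in Ca-free medium and 0 fell, with a median log2 change of 0.13 (-0.08 with scaling to the hybridization controls). In the matrix arm 6 of 14 genes rose (42.9%), in the membrane arm 6 of 20 (30%), and among the assembly factors 1 of 8 (12.5%). These counts, and those of complexes II to V below, stand beside 12.3% higher and 28.8% lower among all tested genes. In the brightest decile, where most member probe sets lay, 35.9% of all probe sets were called higher and 4.28% lower.

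The largest rise in the membrane arm was that of Ndufb10, an accessory subunit. Its signals were 3241, 3549, 4049 and 3851 on controls 1 to 4, 3025, 3724, 4050 and 4120 on the 20 pulses arrays, and 5263, 5472, 4816 and 6041 on the Ca-free arrays. The lowest Ca-free array lay above the highest control and the highest 20 pulses array. The log2 change against control was 0.55 (SE 0.099, adjusted p = 0.00114). Ndufb5, another accessory subunit of this arm, rose from 4252 ± 438.1 to 5355 ± 306.7 (SD, n = 4), a log2 change of 0.33 (SE 0.078, adjusted p = 0.00452), and its groups did not overlap; with only controls 3 and 4 the change of 0.22 was not called. Ndufb1, Ndufb7, Ndufa8 and Ndufb2 were also called, with changes of 0.26 to 0.29.

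In the matrix arm the largest rise was that of Ndufa6, an accessory subunit. It read 2545, 2819, 3035 and 2963 on the controls, 3105, 2963, 3018 and 3344 after 20 pulses, and 3845, 4211, 3922 and 4197 in Ca-free medium. The Ca-free arrays stood above all others, and the log2 change of 0.51 (SE 0.067, adjusted p = 0.000253) was called under each of the 29 alternatives. Ndufv2, an iron-sulfur subunit of the NADH-oxidising module, rose on all 3 of its probe sets, by 0.34 on the brightest (SE 0.069, adjusted p = 0.00206) and by 0.27 and 0.43 on the others. Its brightest probe set read 7174 to 7745 on controls and 8712 to 9897 on Ca-free arrays. Ndufa2, Ndufv3, Ndufs7 and Ndufa12 were called with changes of 0.20 to 0.31. The flavin-binding subunit Ndufv1 (0.11) and the core subunit Ndufs1 (0.15), at the entry of electrons, were not called.

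Among the assembly factors of complex I, Ndufaf4 rose on both probe sets. The brighter read 1994, 1994, 1885 and 1952 on the controls, 2087, 2353, 2257 and 2477 after 20 pulses, and 2710, 2685, 2843 and 3057 in Ca-free medium. The 3 groups did not overlap, with 20 pulses between the others. The log2 change in Ca-free medium was 0.52 (SE 0.067, adjusted p = 0.000233), and that after 20 pulses, 0.22 (SE 0.067), was not called (adjusted p = 0.113). The dimmer probe set changed by 0.39 in Ca-free medium (adjusted p = 0.00601). Ndufaf5 and Ndufaf3 had changes of -0.37 and -0.32 and were not called.

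Complex II, which oxidises succinate and also belongs to the citric acid cycle, had 1 rise and 1 fall among its 4 genes (25% each). The median log2 change was -0.05 (0.35 with median scaling, 0.04 with only controls 1 and 2, and 0.02 with only Ca-free arrays 1 and 4). Sdhb, the iron-sulfur subunit, read 2395, 2674, 2849 and 3068 on controls, 2946, 3152, 2932 and 3455 after 20 pulses, and 3837, 3513, 3157 and 4043 in Ca-free medium. Its Ca-free arrays lay above the controls but overlapped the 20 pulses arrays, and the log2 change against control was 0.40 (SE 0.090, adjusted p = 0.00377); with only controls 3 and 4 a change of 0.29 was not called.

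Sdhd, a membrane anchor of complex II, was lower. Its brighter probe set read 1313, 1294, 1289 and 1388 on controls, 1254, 1434, 1438 and 1304 after 20 pulses, and 1178, 929, 1199 and 1017 in Ca-free medium. Every Ca-free array lay below every other array, with a log2 change of -0.29 (SE 0.088, adjusted p = 0.0175), which became 0.11 with median scaling. Without Ca-free array 2 the change of -0.22 was not called, and the second probe set changed by 0.04 (SE 0.13) and was not called. On their brightest probe sets the flavoprotein Sdha (-0.06, SE 0.078) and the anchor Sdhc (-0.05, SE 0.099) overlapped between groups and were not called. Each had a dimmer tested probe set, also not called. Of the 7 tested probe sets of complex II, 2 had every Ca-free array below every control, beside 27% of all probe sets. These were the brighter of Sdhd and a dimmer one of Sdha or Sdhc.

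Complex III oxidises ubiquinol and reduces cytochrome c. Of its 8 genes 4 (50%) rose and 0 fell, with a median log2 change of 0.25 (0.04 with scaling to the hybridization controls). Uqcr10, a small subunit, read 1693, 2032, 2431 and 2212 on controls, 1852, 2580, 2369 and 2937 after 20 pulses, and 3131, 3064, 2816 and 3431 in Ca-free medium. The Ca-free arrays lay above every control and overlapped the 20 pulses arrays. The log2 change against control was 0.57 (SE 0.13, adjusted p = 0.0036); with only controls 3 and 4 a change of 0.42 was not called. A second probe set of Uqcr10 rose by 0.41 and the remaining one changed by 0.09 and was not called.

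Uqcrc2, a core protein of complex III, rose from 7788 ± 219.8 to 9612 ± 486.9 (SD, n = 4), a log2 change of 0.30 (SE 0.048, adjusted p = 0.000634), with no overlap between the groups. The hinge protein Uqcrh (0.29) and the Rieske iron-sulfur protein Uqcrfs1 (0.23) were called too. The other core protein, Uqcrc1, changed by -0.10 and was not called.

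Complex IV, cytochrome c oxidase, has subunits that exist as isoforms for different tissues. Of 21 tested genes 7 (33.3%) rose and 3 (14.3%) fell, with a median log2 change of 0.10 (-0.11 with scaling to the hybridization controls). Those that rose were Ndufa4, Cox8a, Cox6b1, Cox4i1 and Cox6c, which are found in most tissues, and the assembly factors Coa3 and Coa6. Those that fell were Cox8c and Cox7b2, known as testis isoforms, and Cox6a2, the heart and skeletal muscle isoform. Other widely expressed subunits were not called on their brightest probe set, among them Cox5a (-0.01), Cox6a1 (0.05) and Cox7a2 (0.10). The difference between isoforms of a subunit was not tested.

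Cox8c had the largest decrease of any member gene. Its brighter probe set read 1127, 1170, 1040 and 1079 on controls, 915.8, 994.1, 1023 and 976.8 after 20 pulses, and 656.5, 672.3, 744.8 and 659.6 in Ca-free medium. The 3 groups did not overlap, with the 20 pulses arrays between the others. The log2 change in Ca-free medium was -0.67 (SE 0.076, adjusted p = 0.000145), and it lay between -0.86 and -0.27 and was called under each of the 29 alternatives. The second probe set changed by -0.87 (SE 0.13, adjusted p = 0.000439). After 20 pulses the brighter probe set changed by -0.17 (SE 0.076) and was not called (adjusted p = 0.289).

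The ubiquitous isoform of the same subunit, Cox8a, was called higher in Ca-free medium. It read 2159, 2679, 3518 and 3162 on controls, 2292, 2216, 2578 and 2972 after 20 pulses, and 3517, 3893, 3202 and 3848 in Ca-free medium. Control 3 lay within the Ca-free range, and the log2 change of 0.34 (SE 0.13, adjusted p = 0.0463) was not called without control 1 or 2, without 20 pulses array 1 or 3, or without Ca-free array 1, 2 or 4 (0.22 to 0.36). A dimmer probe set of Cox8a changed by 0.50 (SE 0.10, adjusted p = 0.00246) with no overlap between the groups.

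Cox7b2 read 203.6, 156.8, 173 and 153.5 on controls, 169.7, 170.5, 160.7 and 168.2 after 20 pulses, and 106.6, 109.8, 116.6 and 105.7 in Ca-free medium. All Ca-free arrays lay below all others, and the log2 change was -0.52 (SE 0.13, adjusted p = 0.00616). It was -0.18 with quantile normalization and -0.19 with median scaling, and not called in either. Cox6a2 fell from 408.9 ± 33.1 to 315.2 ± 61.5 (SD, n = 4), a log2 change of -0.36 (SE 0.12, adjusted p = 0.0294), with Ca-free array 4, at 405.3, within the control range. Cox7a1, also an isoform of heart and skeletal muscle, changed by -0.15 and was not called, and Cox4i2, the alternative isoform of subunit 4, changed by -0.36 (adjusted p = 0.122).

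Markers of tissues that a blastocyst does not contain were counted beside these isoforms. Of the 8 testis and sperm markers 5 were tested, and 2 fell in Ca-free medium, Akap4 by 0.88 and Tnp1 by 0.51 on the log2 scale. The other 3 tested changed by -0.27 to 0.01 and were not called. The summed signal of the 8 was 1056 to 1250 on controls, 968.2 to 1199 after 20 pulses and 795.4 to 874.2 in Ca-free medium. The lowest, Tnp2, had a mean of 14.1 on controls. Of the 8 heart and muscle markers 4 were tested and 2 fell, Ckm (-0.61) and Ryr2 (-0.54), while Myh7 (-0.44) and Actn2 (-0.10) were not called; their sums were 2337 to 2626, 2093 to 2229 and 1825 to 2075.

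Markers of the female reproductive tract were counted too. Of 7 markers of oviduct and uterine epithelium 6 were tested and 5 fell, with a median change of -0.73. The sums of the 7 were 1367 to 1525 on controls, 1143 to 1349 after 20 pulses and 675.3 to 949.1 in Ca-free medium. Of 7 markers of cumulus and granulosa cells only 2 were tested, Foxl2 and Inha. Both fell, with a median of -0.79, and the sums of the 7 were 1020 to 1111, 763.7 to 1048 and 618.2 to 678.3. The others were too dim to be tested. Among them the mean of Tnfaip6 was higher in Ca-free medium than on controls, and those of Amh, Fshr, Has2 and Ptx3 were lower. Of 4 blood markers 2 were tested and neither was called, and their median was -0.38. Among all tested genes 28.8% fell. In the signal decile that holds Cox7b2 (126.8 to 159.2) 35.8% of all probe sets were called lower in Ca-free medium. In that of Cox6a2 (322.5 to 442) the share was 39.6%, and in that of Cox8c (682.8 to 1196) 18.4%. The tested markers of these tissues, apart from Actn2, had mean signals between 100 and 442. In the deciles of that range 26.4% to 46.7% of all probe sets were called lower. The part of these shifts in the isoform results was not tested, and fewer cells carrying a transcript cannot be told apart from less of it per cell.

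Ndufa4, a subunit of complex IV that was first assigned to complex I, read 2674, 2770, 3116 and 3183 on controls, 3290, 2976, 3449 and 3238 after 20 pulses, and 3806, 3878, 3525 and 3930 in Ca-free medium. The Ca-free arrays stood above all others, with a log2 change of 0.37 (SE 0.070, adjusted p = 0.00162). Coa3, an assembly factor of complex IV, rose from 3744 ± 91.4 to 4578 ± 327.9 (SD, n = 4), a log2 change of 0.29 (SE 0.057, adjusted p = 0.00193), with no overlap. The change was 0.13 with quantile normalization and 0.08 with scaling to the hybridization controls, and not called in either. Its dim second probe set, singled out after its values were seen, read 36.1, 23.7, 118.1 and 16.8 on controls and 256.2, 155.5, 209 and 310.6 in Ca-free medium. It passed the minimum signal through the Ca-free arrays alone, so its values are given as a description, with no test. Coa6 changed by 0.22 (adjusted p = 0.0393) and overlapped with the controls, and it was not called without control 1 or 2 or without Ca-free array 1, 2 or 4 (0.16 to 0.23).

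**Figure D4:**
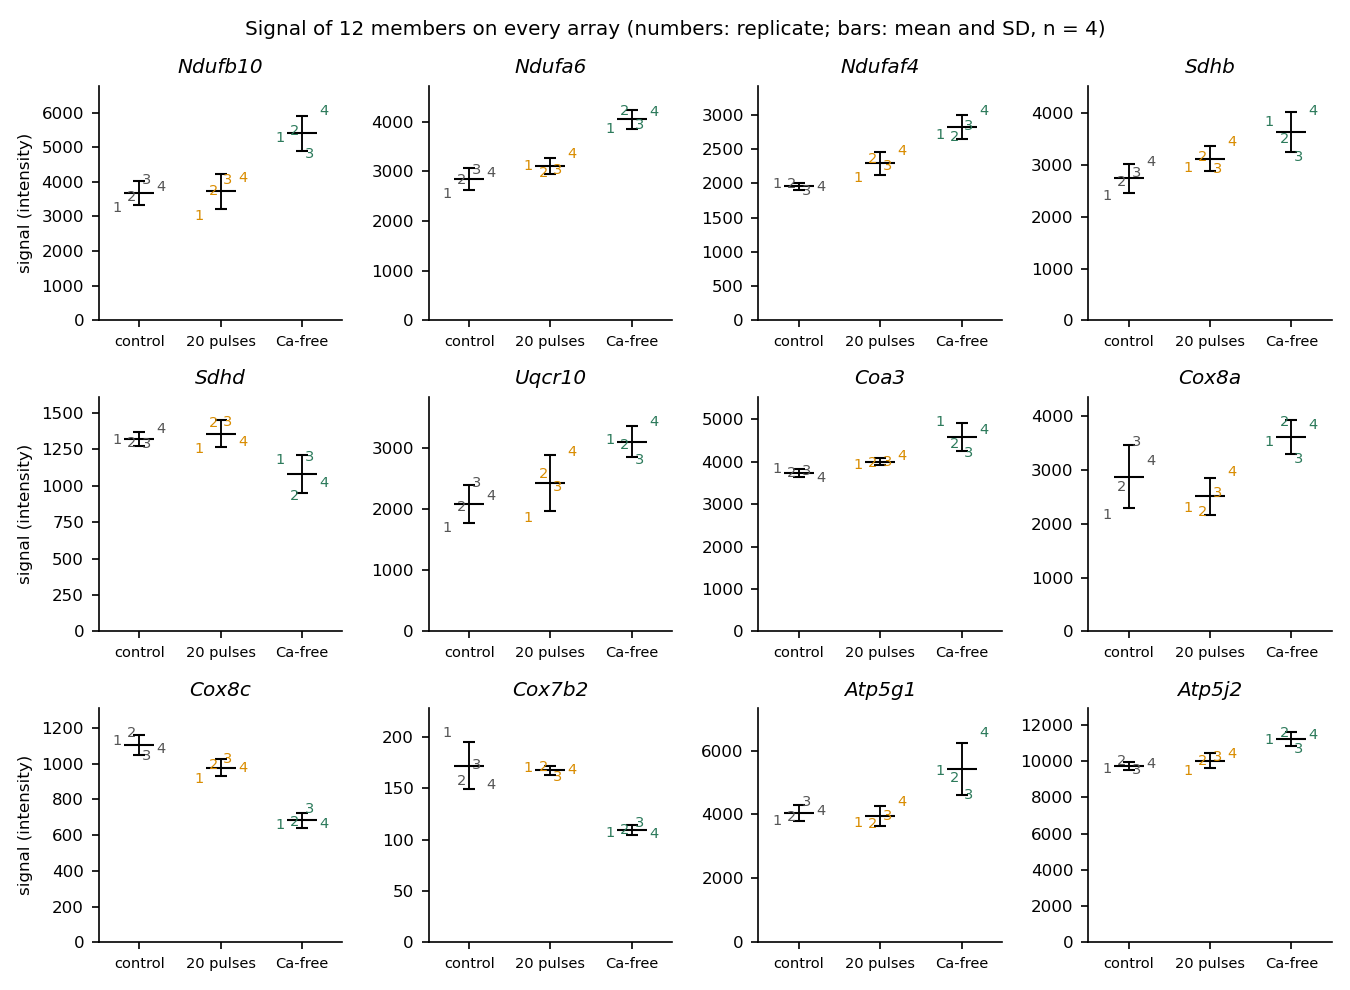
Scaled signal (y axis, linear from 0) of 12 members on each array, by group (x axis); digits mark the replicate, and bars give the mean and SD of 4 arrays. All Ca-free arrays of Ndufb10, Ndufa6 and Ndufaf4 lie above every control, and all Ca-free arrays of Sdhd, Cox8c and Cox7b2 lie below every control.

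Complex V, the ATP synthase, has a catalytic head (F1) and a membrane part (Fo) with stalks. Of its 17 genes 7 (41.2%) rose and 0 fell, with a median log2 change of 0.15 (-0.06 with scaling to the hybridization controls). In the head 1 of 5 genes rose, Atp5c1 of the central stalk, by 0.13 (SE 0.047, adjusted p = 0.0385). The signals of Atp5c1 overlapped between groups, 11150 to 12170 on controls and 11770 to 13480 in Ca-free medium, and its change became -0.08 with scaling to the hybridization controls. Without control 1, 2 or 4, or without Ca-free array 1, 2 or 4, Atp5c1 was not called (0.11 to 0.14). The catalytic subunits Atp5b (0.14) and Atp5a1 (-0.03) were not called on their brightest probe sets. A second bright probe set of Atp5a1 was called higher, from 7279 on controls to 8295 in Ca-free medium on average, a log2 change of 0.19 (adjusted p = 0.0101) with no overlap.

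In the membrane part and stalks 6 of 12 genes rose. Atp5g1, which encodes the c subunit of the proton-driven ring, read 3790, 3916, 4375 and 4104 on controls, 3749, 3698, 3956 and 4400 after 20 pulses, and 5357, 5141, 4610 and 6544 in Ca-free medium. Every Ca-free array lay above every other array, and the log2 change was 0.41 (SE 0.092, adjusted p = 0.00378). The other genes of this same protein, Atp5g2 (0.04) and Atp5g3 (0.10), were not called, though a dim probe set of Atp5g2 was called lower (-0.52). Atp5l, a small membrane subunit, read 1733 to 2412 on controls and 2235 to 2836 in Ca-free medium, a log2 change of 0.33 (SE 0.11, adjusted p = 0.0294) with overlap; it was not called without control 1 or 2 or without Ca-free array 1, 2 or 3 (0.25 to 0.33). Atp5md, Atp5j, Atp5o and Atp5j2 were called with changes of 0.20 to 0.28.

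Where a gene had several tested probe sets, these seldom all passed, and none passed in opposite directions. Of 51 such genes, 6 were called higher on all probe sets (Coa3, Cox6b1, Cox8a, Ndufaf4, Ndufb7 and Ndufv2), 19 on some, and 21 on none. Coa3 is among the 6 only through the probe set that reached a mean of 100 in Ca-free medium alone. Without it and the like probe set of Ndufb2, 6 of 50 genes were called higher on all probe sets, with Ndufb2 in place of Coa3. Cox8c was called lower on both, and Atp5g2, Ndufaf8, Sdhd and Uqcrq on some. Uqcrq, a small subunit of complex III, differed between its probe sets: the brightest changed by 0.27 and was not called (adjusted p = 0.0613), while 2 dimmer ones changed by -0.61 and -0.30 and were called lower. Ndufs8, a core subunit of complex I, rose on 4 of 6 probe sets, by 0.20 to 0.55, while its brightest changed by 0.08 and was not called.

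After 20 pulses no member probe set was called against control by limma, beside 1.1% higher and 0.374% lower of all probe sets (1.48% in either direction). At an unadjusted p under 0.05, 7 were higher and 16 lower, 13.6% of members beside 15.8% of all probe sets. The smallest adjusted p was 0.102, and the median change was -0.03 for members and -0.03 for all. All 20 pulses arrays lay above all controls in 7 member probe sets and below them in 9, beside 5.85% and 5.11% of all probe sets. Scaling to the hybridization controls called 16 members higher, and the share of all probe sets called by it is not given. These controls shifted by -0.16 after 20 pulses, so this scaling raises all signals of those arrays against control. Leaving out 20 pulses array 2 called 1 member higher, a probe set of Ndufs8. With only controls 1 and 2 a probe set of Ndufb5 was called higher, and with only controls 3 and 4 Cox6c and Atp5d were each called lower on 1 probe set.

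Against 20 pulses, too, most members had positive changes in Ca-free medium at the scaling used here, 137 of 169 probe sets. Among all 27808 tested probe sets 8911 had positive changes. Counts of all probe sets by signal decile or under other scalings are not given for this comparison. Of 169 probe sets 66 were called higher and 7 lower, beside 9.22% and 23.4% of all probe sets (32.6% in either direction), and the median log2 change was 0.16 for members and -0.17 for all. Without the second probe set of Coa3, 65 were higher. By gene 43 rose and 5 fell, beside 11.2% and 21% of all 13599 genes: complex I 19 and 0, complex II 0 and 1, complex III 4 and 0, complex IV 9 and 4, and complex V 11 and 0. The counts were 11 higher with quantile normalization, 141 higher and 1 lower with median scaling, and 2 higher and 92 lower with scaling to the hybridization controls; those 2 were a dimmer probe set of Cox8a and the probe set of Coa3 that reached a mean of 100 in Ca-free medium alone. Without 20 pulses array 1, or without Ca-free array 1, 4 were lower.

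The largest increases against 20 pulses were those of Ndufs5, Ndufb10 and Cox8a. Ndufs5, an accessory subunit of complex I, read 559.6, 713.3, 717.5 and 856.6 after 20 pulses and 1081, 892.2, 914 and 1378 in Ca-free medium, a log2 change of 0.56 (SE 0.19, adjusted p = 0.0398) without overlap. Its controls spread from 510.4 to 1004, and against them it was not called (adjusted p = 0.0769). The call of Ndufs5 against 20 pulses was lost without 20 pulses array 1, 2 or 3 or without Ca-free array 1 or 4 (0.43 to 0.56). Ndufb10 changed by 0.54 (adjusted p = 0.00231) and Cox8a by 0.52 (adjusted p = 0.00879). The largest decreases were those of Cox4i2 (-0.52, adjusted p = 0.0395), Cox8c (-0.50, adjusted p = 0.000945) and Cox7b2 (-0.49, adjusted p = 0.0108). Cox4i2 read 183.3, 150.2, 134.7 and 106.5 after 20 pulses and 84.3, 104.3, 69.3 and 102.8 in Ca-free medium, and its call was lost without 20 pulses array 1, 2 or 3 or without Ca-free array 1 or 3 (-0.54 to -0.41). Its Ca-free mean of 90.2 was below 100. Scaling ended calls here as well: that of Cox8c with median scaling (-0.14), those of Cox4i2 and Cox7b2 with quantile normalization and with median scaling (-0.22 to -0.18), that of Ndufb10 with scaling to the hybridization controls (0.17), and those of Cox8a (0.41 and 0.16) and Ndufs5 (0.59 and 0.20) with quantile normalization and with scaling to the hybridization controls.

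Genes around the pathway were counted from lists outside the members. Of 39 further assembly factors 10 rose and 4 fell in Ca-free medium, 25.6% and 10.3% beside 12.3% and 28.8% of all tested genes. After 20 pulses 1, Ttc19, was called higher (0.44), beside 0.75% of all genes. Bcs1l, which inserts the Rieske protein into complex III, rose from 333.7 ± 25.3 to 637 ± 33.4 (SD, n = 4), a log2 change of 0.87 (adjusted p = 0.000226), and Oxa1l, the insertase of the inner membrane, by 0.54. Tmem126a, an assembly factor of complex I, changed by -0.48 and Lyrm7, a chaperone of the Rieske protein, by -0.85, both called lower. Lyrm7 was dim, with a mean signal of 104.9 over all arrays and 64.2 on the Ca-free arrays. Its controls read 182.2, 182.3, 109.9 and 98.2. In its decile, the dimmest, 26.4% of all probe sets were called lower. ND5 was the 1 subunit encoded by mitochondrial DNA that was measured, and it rose by 0.33 (adjusted p = 0.00455). ND5 read 8332, 8487, 6795 and 6470 on controls and 9522, 9441, 8895 and 9674 in Ca-free medium, so controls 1 and 2 stood nearer to the Ca-free arrays than controls 3 and 4.

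Of 4 other subunits and carriers 2 rose, the ATP synthase inhibitor Atpif1 (0.33) and cytochrome c, Cycs (0.13). That is 50% higher and 0 lower, beside 12.3% and 28.8% of all tested genes. Among 25 regulators of mitochondrial biogenesis and of mitochondrial DNA expression 2 rose and 2 fell, 8% in each direction beside the same 12.3% and 28.8%. Tefm (0.36) and Tfb2m (0.30), which act in mitochondrial transcription, rose, and Esrrg (-0.50) and the coactivator Ppargc1a (-0.48) were lower. Of 7 nucleotide carriers, porins and uncouplers, the porins Vdac3 (0.19) and Vdac2 (0.15) rose and Ucp3 (-0.70) fell, 28.6% and 14.3% beside 12.3% and 28.8%. Atpif1, Cycs, Vdac2 and Vdac3 lay in the brightest decile, where 35.9% of all probe sets were called higher. Ucp3 lay in a decile where 46.7% were called lower.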

How the data were processed

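Values were signals of 12 arrays. Per the submitters' processing notes the authors made them with MAS5, and the deposited intensity values are linear, scaled on each array to a 2% trimmed mean of 150.001. Per the labels, total RNA came from a PicoPure kit and was labelled with biotin. Detection calls were not used here. The number of arrays limits the precision.

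Signals were multiplied by 3.33 for a trimmed mean of 500, 32 was added and log2 taken. The 27808 probe sets whose mean signal reached 100 were tested with limma 3.58.1 in R 4.3.3 (lmFit and eBayes, trend on intensity, 1 model of all 12 arrays), with Benjamini-Hochberg adjusted p under 0.05 over all of them. The procedure was tested on simulated data. Platform annotation paired 34945 probe sets with 1 gene, 932 with several and 9160 with none; all 95 member genes matched RefSeq, whose GRCm38.p6 table gave names and promoters. Fold changes understate the change of dim probe sets.

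Named genes were, per role group, up to 2 called increases and 2 called decreases in Ca-free medium, the Sdh genes, the 3 largest called changes each way against 20 pulses, and up to 2 called each way per surrounding list; other genes are given as group members. Members, lists and alternatives were chosen with earlier results of these data known.

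Whether same-numbered arrays pair was not settled, and the model used no pairing. Of 12 same-number pairs 1 had a residual correlation over 0.1 (mean 0.0156, against -0.00521 for other numbers). For 7 of 12 arrays the best correlated array was of the same number.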

Additional observations from a re-analysis of the deposited data

How the results depend on the processing

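Counts of member probe sets depended most on the scaling. In Ca-free medium against control (54 higher, 9 lower), quantile normalization gave 25 higher and median scaling 146 higher and 2 lower. Hybridization control scaling gave 10 higher and 35 lower. Among all tested probe sets these scalings gave, in turn, 2738, 10266 and 768 higher and 2760, 1513 and 13773 lower. Controls 3 and 4 only gave 25 higher, Ca-free arrays 2 and 3 only 31 higher, controls 1 and 2 only 5 lower, and an adjusted p under 0.01 27 higher and 4 lower. Leaving out 1 array at a time gave 35 to 68 higher and 5 to 10 lower. For 20 pulses against control (0 and 0), hybridization control scaling gave 16 higher, controls 1 and 2 only 1 higher and controls 3 and 4 only 2 lower, and leaving out 1 array gave 0 to 1 higher. The share of all probe sets under these settings is not given for 20 pulses. For Ca-free medium against 20 pulses (66 and 7), quantile normalization gave 11 higher, median scaling 141 higher and 1 lower, hybridization control scaling 2 higher and 92 lower, no intensity trend 41 higher, Ca-free arrays 2 and 3 only 25 higher, and an adjusted p under 0.01 31 higher and 2 lower; leaving out 1 array gave 45 to 73 higher and 4 to 7 lower. The median log2 change of member genes in Ca-free medium against control (0.14) was 0.052 with quantile normalization, 0.55 with median scaling, -0.063 with hybridization control scaling and 0.11 to 0.17 with 1 array left out. Hybridization control scaling turned the medians of complex I (-0.077), IV (-0.11) and V (-0.060) and the change of Atp5c1 (-0.075). Complex II turned to 0.35 with median scaling, 0.039 with controls 1 and 2 only and 0.023 with Ca-free arrays 1 and 4 only; median scaling also turned Sdha (0.35), Sdhc (0.35) and Sdhd (0.11). The older design of the hybridization control probe sets shifted by 0.37 in Ca-free medium, against 0.21 for the design used. The cause of these changes was not tested.

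With the replicate block, which is not a pairing given by the labels, 59 were higher and 7 lower in Ca-free medium against control, 0 and 0 after 20 pulses, and 69 higher and 7 lower in Ca-free medium against 20 pulses; the median stayed at 0.14. It ended the call of Atp5c1 and gave one to Ndufs5. The array best correlated with an array was of its own number for 7 of 12 arrays, and the number expected without pairing was not computed. Dim probe sets, below a mean signal of 100, were not tested. Leaving out probe sets that reached 100 in 1 group only, chosen after seeing the data, gave 53 higher and 9 lower against control and 65 higher and 7 lower against 20 pulses.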

Other observations

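The 18 member probe sets that were not tested were all dim. Cox6b2, a testis isoform of complex IV, read 64.98 ± 24.7 on controls, 71.2 ± 30.3 after 20 pulses and 18.5 ± 7.05 in Ca-free medium (SD, n = 4), and every Ca-free array lay below every control. Ndufa4l2, a relative of Ndufa4 induced by hypoxia, read 61.9 ± 18.8, 65.3 ± 24.2 and 31.1 ± 4.17, also with Ca-free arrays below every control. Among all 27808 tested probe sets 27% had every Ca-free array below every control, and the median change in their dimmest decile was -0.36. The share among untested probe sets was not counted. Cox8b, an isoform of heart and skeletal muscle, read 47.2 ± 7.75, 43.3 ± 6.35 and 37.1 ± 1.83, and its groups overlapped.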
